A study of Mus musculus with 24 samples.

Results

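Mitochondrial biogenesis in muscle is driven by a small set of transcriptional regulators, and 10 of them were followed here in the plantaris, a fast hindlimb muscle. The 10 genes were taken by symbol from the 47643 Ensembl genes of the count table: the coactivators Ppargc1a and Ppargc1b, the estrogen-related receptors Esrra, Esrrb and Esrrg, the muscle regulator Perm1, the mitochondrial transcription factor Tfam, nuclear respiratory factor Nrf1, and the fatty acid receptors Ppara and Ppard. All 10 were found and all 10 passed the expression filter. The mice were wild-type C57BL/6; their sex and age are not given in the labels. Of the 24 plantaris samples, 11 came from mice kept in normal air and 13 from mice that received tobacco smoke over 16 weeks, and each gave 1 library for sequencing of transcript 3′ ends. The series concerns aryl hydrocarbon receptor activity in smokers' muscle, and the comparison of smoke with air asks here whether the transcripts of these regulators differ.

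PGC-1α and PGC-1β, the products of Ppargc1a and Ppargc1b, do not bind DNA themselves. They are recruited by receptors such as the estrogen-related receptors (ERR) and the peroxisome proliferator-activated receptors (PPAR), and by NRF1, and so raise transcription of nuclear genes for the respiratory chain, fatty acid oxidation and the copying of mitochondrial DNA. In skeletal muscle Ppargc1a is known for its rise with endurance exercise and for its higher level in oxidative fibres. Nrf1 here is nuclear respiratory factor 1, a gene apart from Nfe2l2, whose product NRF2 shares part of the name.

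Promoters of 3 members are printed. Ppargc1a stands at the head of the pathway, and Esrra and Tfam were each in a pair with Esrrg that passed adjustment by Pearson's r across samples. Those pairs did not pass by rank correlation, and Esrra with Tfam did not pass (Pearson's r 0.45, adjusted permutation p = 0.368). RefSeq windows (build GRCm38.p6, 250 bases before to 50 after a start site) matched 9 of the 10 members with 14 windows. Each line gives the 250 bases before the start, 5′ to 3′ on the gene's own strand, with the motif matches in capitals.
Ppargc1a (chr5:51567726-51567975, minus strand): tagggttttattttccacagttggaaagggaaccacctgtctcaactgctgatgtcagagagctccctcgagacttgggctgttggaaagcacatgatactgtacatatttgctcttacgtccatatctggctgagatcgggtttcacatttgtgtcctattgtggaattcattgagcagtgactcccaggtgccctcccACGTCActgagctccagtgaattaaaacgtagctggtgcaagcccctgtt
Esrra (chr19:6921809-6922058, minus strand): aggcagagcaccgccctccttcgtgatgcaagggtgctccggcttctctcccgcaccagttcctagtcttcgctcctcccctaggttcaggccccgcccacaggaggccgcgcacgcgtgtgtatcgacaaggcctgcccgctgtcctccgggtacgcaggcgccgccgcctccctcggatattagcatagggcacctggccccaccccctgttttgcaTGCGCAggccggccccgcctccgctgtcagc
Tfam (chr10:71238045-71238294, minus strand): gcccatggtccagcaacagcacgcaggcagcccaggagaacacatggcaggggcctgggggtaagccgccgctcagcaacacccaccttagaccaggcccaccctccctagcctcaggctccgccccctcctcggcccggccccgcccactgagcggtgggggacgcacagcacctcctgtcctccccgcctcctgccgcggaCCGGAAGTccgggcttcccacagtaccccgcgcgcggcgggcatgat
The capitals mark ACGTCA, the core of a cyclic AMP response element, from position −50 of Ppargc1a; TGCGCA, a part of the NRF1 consensus, from position −31 of Esrra; and CCGGAAGT, an ETS site of the kind bound by the GA-binding protein, from position −47 of Tfam. Both strands were searched, and positions count back from the start site. Of all 32851 windows in the table, 7.51% held ACGTCA, 7.76% TGCGCA and 3.89% CCGGAAGT. Among the 7705 tested genes with a window the shares were 13.8%, 16.8% and 9.59%, and each motif was in 1 of 9 members (11.1%). The full NRF1 palindrome, which does not contain TGCGCA and stood in 0.971% of windows and 2.43% of tested genes, was matched from position −31 of Ppara. The receptor core AGGTCA (16.3% of windows) was matched from position −202 of Perm1. The ERR element TNAAGGTCA (1.28% of windows), which contains AGGTCA, was not in any member's window, nor were TGACGTCA, which contains ACGTCA (1.79%), the direct repeat of AGGTCA with a 1-base spacer (0.0396%) or CACGTG (7.15%). These matches describe letters within short windows only.

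The libraries held 2515697 to 4528845 counts each. Markers of fast fibres, 13 of 13 of them tested, summed to 227243 to 353079 CPM (counts scaled to library size) in air and 235828 to 299794 CPM in smoke, so the labelled tissue carried its defining transcripts. All samples were read on lane 6, and the sample-sheet numbers of all smoke libraries precede those of all air libraries, so that order and the group cannot be told apart. Levels below are CPM after TMM scaling, and because 3′-end counting gives a transcript reads at its end whatever its length, they were compared between genes without division by length.

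The members spanned an 83.7-fold range of level, from Perm1 to Ppard. Perm1, a muscle gene induced by PGC-1 and ERR that acts back on oxidative genes, had the highest mean level over 24 samples, at 541 CPM, 5.16 times that of Esrra at 105 CPM. Ppargc1a followed at 55.9 CPM and Tfam at 32.01 CPM. Each of Perm1, Esrra and Ppargc1a lay above the next gene in 24 of 24 samples, and Tfam lay above Ppargc1b in 23 of 24. Ppargc1b at 16.3 CPM, Esrrg at 16.0 CPM and Esrrb at 14.3 CPM were not separated by their spread: Ppargc1b was above Esrrg in 11 of 24 samples and Esrrg above Esrrb in 14. The lowest were Ppara at 9.14 CPM, Nrf1 at 8.30 CPM and Ppard at 6.47 CPM, again in overlapping ranges, with Ppara above Nrf1 in 13 of 24 samples and Nrf1 above Ppard in 17.

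**Figure D1:**
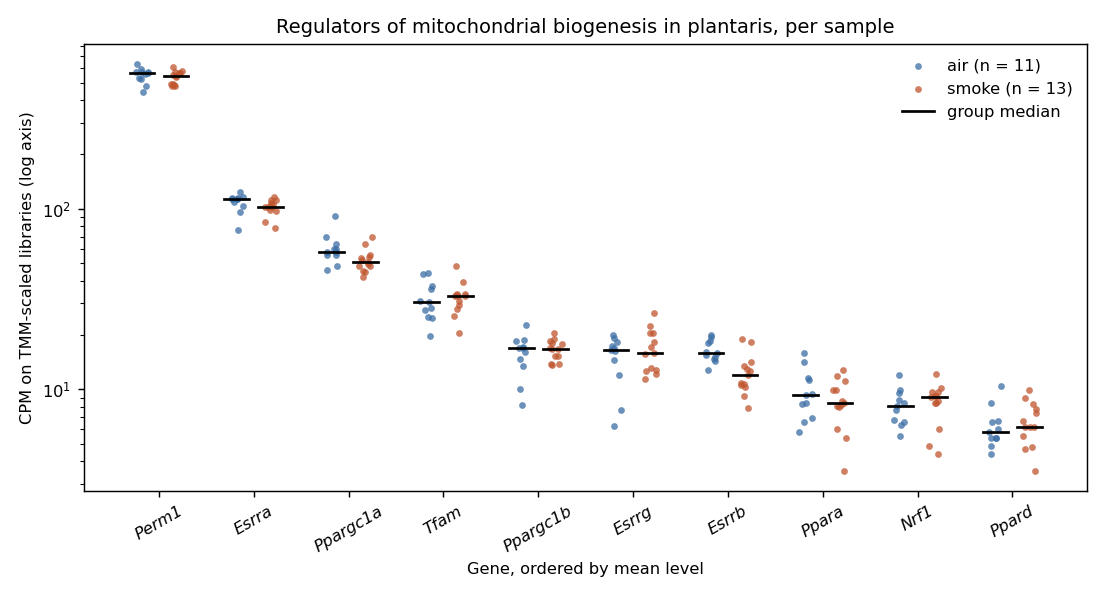
Levels of the 10 regulators in each sample, in CPM on TMM-scaled libraries on a log axis, for 11 air (blue) and 13 smoke (orange) samples, with black bars at the group medians. The genes run from Perm1 at a mean of 541 CPM to Ppard at 6.47 CPM, and the air and smoke points overlap for all 10.

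None of the regulators passed the test between smoke and air. With edgeR's quasi-likelihood test and Benjamini-Hochberg adjustment over all 10159 tested genes, 0 of 10 members were called at an adjusted p under 0.05, where 1.92% of all tested genes were called. At an unadjusted p under 0.05 there were 2 members (20%), Esrrb and Ppargc1a, both lower in smoke, against 15.5% of all genes. With only 10 genes, both counts are close to those shares and do not set the members apart from other genes. The air and smoke ranges overlapped for all 10 members (ranges were apart for 0.0295% of all genes). Of the 10 log2 fold changes 5 were negative, and their median was −0.0046, beside 0.0066 over all tested genes. In bulk tissue fewer cells of a type and less RNA per cell cannot be told apart.

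Esrrb encodes ERRβ, the member of the receptor family best known from stem cells and placenta. It had the smallest p of the 10. Air samples lay between 12.9 and 20.1 CPM with a median of 15.9, and smoke samples between 7.88 and 19.1 CPM with a median of 12.1. In smoke, 11 of 13 samples were below the air mean. The exceptions were smoke samples 11 and 13, at 19.1 and 18.2 CPM, which stood among the higher air samples. The means were 16.4 ± 2.27 CPM (SD, n = 11) and 12.5 ± 3.25 CPM (SD, n = 13), or −0.39 on the log2 scale (95% interval −0.64 to −0.15, SE 0.12; adjusted p = 0.0780 in edgeR). Its counts were low, 28 to 78 per sample (positions 86361117 to 86521628 of chromosome 12, plus strand, GRCm38, no annotated overlap). Its side of the threshold varied with the tool, with single samples and with the design: DESeq2 gave an adjusted p of 0.0480, and edgeR gave 0.0271 without smoke sample 11 and 0.0291 without smoke sample 13. With replicate number as a block, edgeR gave a log2 fold change of −0.48 and an adjusted p of 0.0347. It stayed uncalled with each of the covariates below. With an index of clock genes as a covariate its log2 fold change was −0.26 (edgeR adjusted p = 0.534), and the adjusted p was 0.296 with a score of blood markers, 0.270 with a score of Schwann cell and nerve markers and 0.185 with the library share of Gm42418, a gene overlapping ribosomal RNA sequence. The log2 fold changes in these 3 fits were −0.36, −0.36 and −0.34.

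The other ERR genes did not pass either. Esrra, whose product ERRα is the main partner of PGC-1α on respiratory chain genes, had air samples at 75.9 to 123 CPM (median 114) and smoke samples at 78.7 to 116 CPM (median 103). Those ranges nearly coincide. Its log2 fold change was −0.09 (SE 0.068, 95% interval −0.23 to 0.04, edgeR adjusted p = 0.552). The 3′ end of Esrra (chromosome 19, 6910977 to 6921813, minus strand) overlaps Trmt112 on the opposite strand, and the use of strand in counting is not given in the sources used here, so its counts are uncertain. Trmt112 itself stood at 10.4 ± 2.76 CPM (SD, n = 11) in air and 9.49 ± 2.002 CPM (SD, n = 13) in smoke. Esrrg, for the receptor ERRγ of oxidative muscle and heart (chromosome 1, 187608791 to 188214885, plus strand), had air samples at 6.30 to 19.9 CPM (median 16.5) and smoke samples at 11.4 to 26.5 CPM (median 15.9). Its lowest values were both in air, at 6.30 CPM in sample 11 and 7.65 CPM in sample 2. The log2 fold change was 0.16 (SE 0.15, 95% interval −0.16 to 0.47, edgeR adjusted p = 0.693). It was 0.44 with the clock index and 0.35 with the nerve score as a covariate (edgeR adjusted p = 0.369 and 0.392). Leaving out 1 sample gave 0.074 to 0.20, lowest without air sample 11.

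Counts of the 3 receptors can be set against each other within a sample, where library scaling drops out. Esrra made up 77.6 ± 2.11% (SD, n = 11) of ERR counts in air and 77.7 ± 2.69% (SD, n = 13) in smoke. Esrrb made up 8.72 to 16.3% in air (median 12.1%) and 5.91 to 12.6% in smoke (median 9.60%). Esrrg made up 6.41 to 13.5% in air (median 11.3%) and 9.58 to 18.8% in smoke (median 12.1%). The ranges of each share overlap, and since these shares were set up after the values were known they are given without a test. Among the PGC-1 counts, Ppargc1a took 66.8 to 86.4% in air (median 80.2%) and 70.1 to 80.7% in smoke (median 76.2%), and in 12 of 13 smoke samples it was under the air mean.

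Ppargc1a had a lower mean in smoke and did not pass. Air samples lay between 45.9 and 91.3 CPM (median 57.7) and smoke samples between 41.8 and 69.6 CPM (median 51.0). The groups overlapped over most of their ranges. The highest sample was air 4, and 11 of 13 smoke samples were below the air mean. Means were 60.4 ± 12.1 CPM (SD, n = 11) and 52.1 ± 7.66 CPM (SD, n = 13), a log2 fold change of −0.21 (SE 0.090, 95% interval −0.40 to −0.03, edgeR unadjusted p = 0.0228, adjusted p = 0.222). Leaving out 1 sample gave −0.26 to −0.14, the value nearest 0 being without air sample 4 (edgeR adjusted p = 0.399). The gene lies on chromosome 5, 51454250 to 51567726, minus strand, and overlaps 4 predicted genes of the annotation, 0 of them at its 3′ end. With the clock index as a covariate (r 0.76 with the group), its log2 fold change turned to 0.06 (edgeR adjusted p = 0.870). Of the 16 clock genes tested 4 were called higher and 1 lower in smoke.

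Ppargc1b, the coactivator relative of Ppargc1a (chromosome 18, 61298136 to 61400431, minus strand), had air samples at 8.18 to 22.8 CPM (median 17.0) and smoke samples at 13.7 to 20.5 CPM (median 16.8). The smoke samples fell wholly within the air range. Its log2 fold change was 0.06 (SE 0.12, 95% interval −0.18 to 0.30, edgeR adjusted p = 0.856), and without air sample 11, the lowest, it was −0.0045.

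Perm1 (chromosome 4, 156215868 to 156221307, plus strand, no annotated overlap) had the tightest estimate of the 10. Air samples lay between 444 and 631 CPM (median 566) and smoke samples between 477 and 612 CPM (median 544). In smoke 7 of 13 samples were below the air mean and 6 above it. On the log2 scale smoke differed from air by −0.04 (SE 0.055; adjusted p = 0.796 in edgeR), with a 95% interval from −0.15 to 0.07. Leaving out 1 sample gave −0.070 to −0.018, nearest 0 without air sample 3 and farthest without air sample 9.

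Tfam, which packages mitochondrial DNA and starts its transcription (chromosome 10, 71225464 to 71238280, minus strand), had air samples at 19.8 to 43.9 CPM (median 30.4) and smoke samples at 20.5 to 48.4 CPM (median 32.9). The groups covered nearly the same range, and the log2 fold change was 0.03 (SE 0.12, 95% interval −0.20 to 0.27, edgeR adjusted p = 0.938). With the clock index it was 0.29 (edgeR adjusted p = 0.453). Nrf1, which acts on Tfam and on respiratory chain genes (chromosome 6, 30047988 to 30153458, plus strand), had air samples at 5.53 to 11.9 CPM (median 8.05) and smoke samples at 4.41 to 12.1 CPM (median 9.09). Its log2 fold change was 0.05 (SE 0.15, 95% interval −0.26 to 0.35, edgeR adjusted p = 0.928).

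The fatty acid receptors were the least abundant with Nrf1. Ppara (chromosome 15, 85734983 to 85802819, plus strand) had air samples at 5.83 to 15.9 CPM (median 9.30) and smoke samples at 3.55 to 12.8 CPM (median 8.42), a log2 fold change of −0.20 (SE 0.17, 95% interval −0.55 to 0.15, edgeR adjusted p = 0.641). With the library share of Gm42418 as a covariate it was −0.40 (edgeR unadjusted p = 0.0240, adjusted p = 0.251). Leaving out 1 sample gave −0.26 to −0.11, nearest 0 without air sample 4. Ppard, for the PPAR form most linked to fatty acid use in muscle (chromosome 17, 28232700 to 28301474, plus strand), had air samples at 4.398 to 10.4 CPM (median 5.83) and smoke samples at 3.55 to 9.90 CPM (median 6.17). For Ppara smoke reached lower and air higher, with a shared middle range, and for Ppard the groups overlapped over most of their ranges. The log2 fold change of Ppard was 0.10 (SE 0.16, 95% interval −0.23 to 0.42, edgeR adjusted p = 0.838), and 0.35 (adjusted p = 0.405) with all libraries thinned to the smallest. Leaving out 1 sample gave 0.040 to 0.18, lowest without smoke sample 6 and highest without air sample 6.

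Counting error made up different parts of the spread between samples. Counts of Perm1 ran from 1485 to 2524 per sample, and counting error alone would give a coefficient of variation of 2.31%, against 9.57% observed in air and 8.53% in smoke. For Ppard, with 11 to 36 counts per sample, counting error alone would give 21.2%, against 27.3% and 27.4% observed, for Ppara 17.8% against 32.3% and 30.2%, and for Esrrg 13.4% against 30.2% and 27.4%. For Esrrg and Ppara the observed spread was thus well above counting error.

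**Figure D2:**
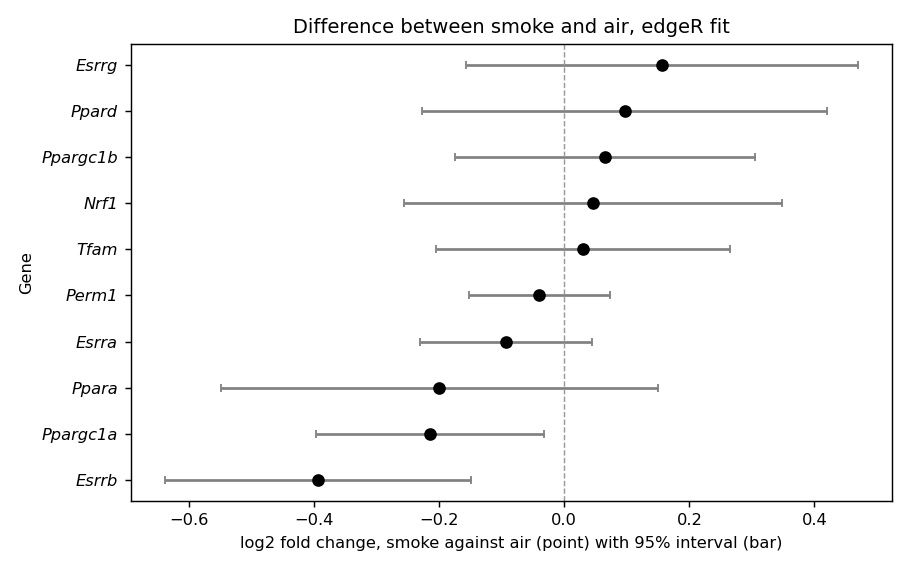
Log2 fold change of smoke against air for each of the 10 regulators (points) with its 95% interval (bars) from the edgeR fit on 24 samples. Esrrb at −0.39 and Ppargc1a at −0.21 have unadjusted intervals below 0, and the other 8 intervals include 0.

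Partners and upstream sensors of these regulators gave 4 calls, all lower in smoke. Of 31 listed coactivators, corepressors and receptor partners 29 were tested, 0 were called higher and 2 lower (6.90%, beside 1.92% of all tested genes called and 1.19% called lower), with a median log2 fold change of 0.05. Nr4a3, an immediate early orphan receptor induced by exercise and adrenergic signals, had air samples at 0.695 to 23.7 CPM (median 5.88) and smoke samples at 0.275 to 4.78 CPM (median 2.55). Its air samples were widely scattered, and its difference of −1.66 on the log2 scale (SE 0.40, adjusted p = 0.0197 in edgeR) did not pass without air sample 4 (adjusted p = 0.0570) or in limma voom (adjusted p = 0.122). With the clock index it was −0.88 (edgeR adjusted p = 0.528).

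Among 29 listed upstream kinases, deacetylases and sensors 27 were tested, 0 were called higher and 2 lower (7.41%), with a median log2 fold change of 0.0037. Rcan1, an inhibitor and target of calcineurin, fell from 177 ± 43.4 CPM (SD, n = 11) to 113 ± 27.8 CPM (SD, n = 13), −0.65 on the log2 scale (SE 0.12; adjusted p = 0.00226 in edgeR). Hdac5, a deacetylase that holds MEF2 factors in check, fell from 62.6 ± 10.4 CPM (SD, n = 11) to 50.7 ± 4.64 CPM (SD, n = 13), −0.30 on the log2 scale (SE 0.076; adjusted p = 0.0261 in edgeR), and passed in 22 of 24 fits that left out 1 sample, not without air sample 5 or 8 (adjusted p 0.0549 and 0.0510). It did not pass with the blood score, the clock index or the nerve score (edgeR adjusted p = 0.221, 0.207 and 0.123), with log2 fold changes of −0.25, −0.31 and −0.30. The tested genes of AMP-activated kinase, the deacetylase Sirt1 and the calcineurin subunits Ppp3ca and Ppp3cb were not called.

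Genes that copy, transcribe and maintain mitochondrial DNA, the machinery Tfam belongs to, gave no call. Of 23 listed, 18 were tested and 0 were called in either direction at an adjusted p under 0.05, beside 1.92% of all tested genes. In the edgeR fit 3 (16.7%) had an unadjusted p under 0.05, close to the 15.5% of all tested genes. The list's median log2 fold change was −0.08, and 14 of 18 were negative, against 48.4% of all tested genes. The smallest p-values were those of Fastkd2, a mitochondrial RNA-binding protein, at −0.20 (SE 0.081, edgeR adjusted p = 0.194), and Mgme1, a mitochondrial DNA exonuclease, at 0.31 (SE 0.14, edgeR adjusted p = 0.274). The 13 mRNAs of the mitochondrial genome had 8 tested and 0 called, with a median of −0.09. The other 5, mt-Co2, mt-Co3, mt-Atp6, mt-Atp8 and mt-Nd4l, are listed at 0 in all samples, although such transcripts are abundant in muscle.

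Among the target genes of the pathway there were calls, all of them lower in smoke. This list and the next were put together from general knowledge, with earlier results of these data known, so their direction is not independent evidence. All 30 listed targets of PGC-1 and ERR were tested: 0 were called higher and 5 lower (16.7%, beside 1.19% of all tested genes called lower). Their median log2 fold change was −0.11, and 28 of 30 were negative, against 48.4% of all tested genes. The ranges of Cox7a1, the muscle form of a cytochrome oxidase subunit, stood apart, with air at 1637 to 2016 CPM and smoke at 1420 to 1608 CPM (log2 fold change −0.26, SE 0.043, adjusted p = 0.00107 in edgeR). The others called were Mb, for the oxygen store myoglobin (log2 fold change −0.36, SE 0.061, edgeR adjusted p = 0.00107), Fndc5, the precursor of irisin (−0.29, adjusted p = 0.00385), Ldhb, the heart-type lactate dehydrogenase subunit (−0.33, adjusted p = 0.00863), and Mdh1, the cytosolic malate dehydrogenase (−0.25, adjusted p = 0.0286). Mdh1 passed in 20 of 24 fits that left out 1 sample, not without air sample 1, 3 or 10 or smoke sample 6 (adjusted p at most 0.0531). Its difference was −0.09 (edgeR adjusted p = 0.705) with the clock index and −0.17 (0.161) with the Gm42418 share, and it did not pass with the blood score (−0.27, 0.102) or the nerve score (−0.20, 0.234) either. Without air sample 11 the list had 8 called lower in place of 5. The nuclear subunits of oxidative phosphorylation (OXPHOS), which have 12 genes in common with this list, Cox7a1 among them, had 77 of 78 tested, 0 called higher and 10 lower, and a median of −0.12. Counts called depend on precision as well as size. Ppargc1a, at −0.21 with an SE of 0.090, was not called, while Cox7a1 was called at −0.26 with an SE of 0.043.

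Genes known as PPAR targets were called lower too. Of 30 listed, 24 were tested, 0 were called higher and 9 lower (37.5%), the median log2 fold change was −0.18 and 21 of 24 were negative. Fabp3, the fatty acid binding protein of muscle, had air samples at 519 to 1205 CPM (median 842) and smoke samples at 401 to 818 CPM (median 513). In smoke 12 of 13 samples were below its air mean, and the log2 fold change was −0.59 (SE 0.10, edgeR adjusted p = 0.00107). Genes of mitochondrial and peroxisomal fat oxidation formed most of the rest: Acadvl at −0.31, Hadha at −0.33, Ech1 at −0.43, Acaa2 at −0.28 and Decr1 at −0.23 (edgeR adjusted p = 0.00107, 0.00427, 0.0015, 0.0235 and 0.0426). Plin5, which coats lipid droplets beside mitochondria, was at −0.63 (SE 0.14, edgeR adjusted p = 0.0098). Pdk4, the kinase that shuts off pyruvate dehydrogenase, was at −1.14 (SE 0.27, edgeR adjusted p = 0.0165) from a low level, 5.32 ± 2.202 CPM (SD, n = 11) in air and 2.36 ± 1.29 CPM (SD, n = 13) in smoke. It was −0.73 with the clock index (edgeR adjusted p = 0.406) and −0.79 with the nerve score (0.245), and did not pass with the blood score (−1.23, 0.0731) or the Gm42418 share (−1.04, 0.0519). Decr1 passed in 7 of 24 fits that left out 1 sample (adjusted p up to 0.0842). The remaining call, Cpt2 of the carnitine shuttle, named here after its value was seen, was at −0.24 (edgeR adjusted p = 0.0495) and passed in 8 of 24 such fits. It did not pass with the blood score, the clock index, the nerve score or the Gm42418 share (edgeR adjusted p = 0.178, 0.168, 0.122 and 0.0816), with log2 fold changes of −0.24, −0.29, −0.26 and −0.24. With the blood score Fndc5, Ech1, Acaa2 and Decr1 did not pass (edgeR adjusted p = 0.0750, 0.0781, 0.172 and 0.242). Their log2 fold changes there were −0.26, −0.31, −0.26 and −0.20. With the clock index Rcan1, Mb, Fndc5, Ldhb and Acadvl did not pass (0.0853, 0.118, 0.161, 0.268 and 0.0583), at −0.63, −0.29, −0.26, −0.24 and −0.32, nor did Plin5 with the nerve score (0.122, at −0.51). The 3′ ends of Mb, Fabp3, Acadvl and Hadha overlap a gene on the opposite strand, so their counts are uncertain in the same way as those of Esrra.

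**Figure D3:**
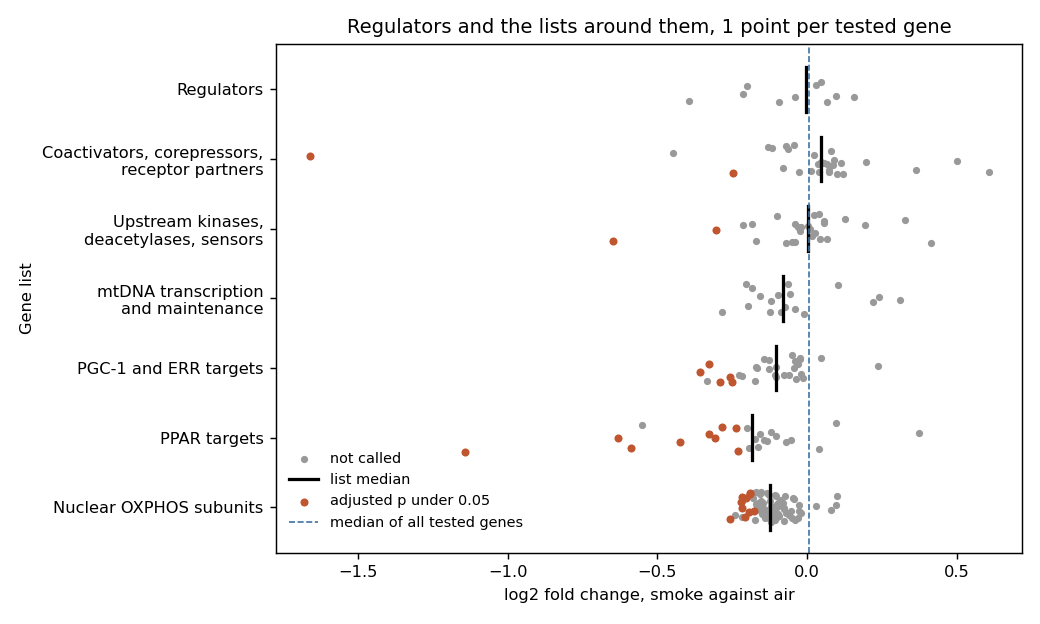
Log2 fold change of smoke against air for every tested gene of 7 lists, 1 point per gene, orange where the edgeR adjusted p was under 0.05, with black bars at the list medians and a dashed line at the median of all tested genes. The regulators centre on −0.0046 with 0 called, the PGC-1 and ERR targets on −0.11 with 5 called, and the PPAR targets on −0.18 with 9 called. Counts called depend on the precision of each gene as well as on its difference, so they do not compare differences between lists.

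Markers of blood and of nerve were called between the groups. Blood markers, 3 of 5 tested called lower, summed to 487 to 1445 CPM in air and 369 to 884 CPM in smoke. Schwann cell and nerve markers, 4 of 6 tested called higher, summed to 121 to 282 CPM in air and 181 to 893 CPM in smoke. Slow and oxidative fibre markers, 0 of 10 called, summed to 3608 to 5659 CPM in air and 2941 to 5059 CPM in smoke. Adipocyte markers, 0 of 8 called, summed to 3915 to 6136 CPM and 4548 to 6458 CPM. No marker on these lists, or on those of endothelial cells, fibroblasts, macrophages and satellite cells, was at 0 in all samples. Their part in the results was not tested beyond the following fits. With a blood score as a covariate, 3 PGC-1 and ERR targets and 4 PPAR targets were called lower, and with the clock index 1 and 6. With a score of slow fibre markers, an alternative added after the data were seen, the counts were 5 and 8 in the same order, and with the nerve score 4 and 6.

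Few pairs of members varied together from sample to sample. Over 24 samples, with each group's mean subtracted from log2 CPM, Pearson's r of the 45 pairs ran from −0.39 to 0.69 with a median of 0.07, and 2 pairs passed Benjamini-Hochberg adjustment of permutation p-values. Esrrg and Tfam had an r of 0.68 (permutation p = 0.00026, adjusted p = 0.0117), 0.80 in air and 0.53 in smoke, and Spearman's rho was 0.61 (permutation p = 0.00282, adjusted p = 0.0817). Its r was 0.62 once the 2 samples most distant from the Esrrg median were left out, and without air sample 11 it was 0.59 (adjusted permutation p = 0.128). Esrra and Esrrg had an r of 0.69 (permutation p = 0.00071, adjusted p = 0.016), 0.85 in air and 0.47 in smoke, with a rho of 0.43 (permutation p = 0.0391, adjusted p = 0.446). That r was 0.46 with the 2 samples most distant from the Esrra median left out, and 0.52 without air sample 11 (adjusted permutation p = 0.208). Without air sample 2 or smoke sample 10 its r was 0.68 and 0.67, close to the full value, with adjusted permutation p = 0.101 and 0.0513.

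**Figure D4:**
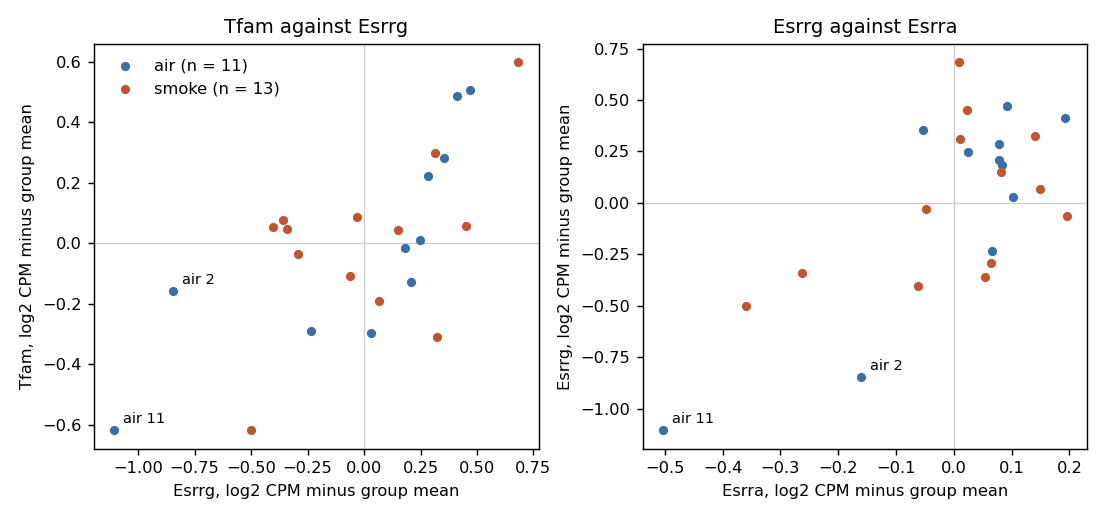
Log2 CPM minus the group mean for Tfam against Esrrg (left) and Esrrg against Esrra (right), 1 point per sample, 11 air (blue) and 13 smoke (orange). Air samples 2 and 11 are named: air 11 is lowest in Esrrg, Esrra and Tfam of its group.

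Air sample 11 was the lowest air sample for 4 of the 10 members, and it had the highest score on the first principal component of all tested genes (0.60, with smoke sample 10 next at 0.44; 16.0% of variance within groups). Air sample 11 and smoke sample 10 also had the lowest TMM factors of the 24 (0.857 and 0.904) and the fewest genes detected (16512 and 16521). Gm42418 took 16.1% and 17.7% of their counts. Whether library composition underlies that component was not tested. Esrra, Esrrg and Tfam tracked that component at r −0.77, −0.78 and −0.73 over 24 samples, and Ppargc1a and Perm1 at −0.17 and 0.17. With the component taken out, r of Esrrg with Tfam was 0.27 (permutation p = 0.219) and r of Esrra with Esrrg 0.22 (permutation p = 0.315), and 0 of 45 pairs passed, as by rho without that step. Ppargc1a and Perm1, a coactivator and its muscle target, had an r of 0.49 (permutation p = 0.0198, adjusted p = 0.297) and a rho of 0.60 (permutation p = 0.00363, adjusted p = 0.0817), 0.32 in air and 0.72 in smoke by Pearson's r.

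The members were also set against the respiratory chain across samples. Against the mean log2 CPM of the 77 tested nuclear OXPHOS subunits, again within groups, 0 of 10 members passed by Pearson's r (4 at an unadjusted permutation p under 0.05). Ppargc1a gave a Pearson's r of 0.07 (permutation p = 0.767) with a rank correlation rho of 0.18 (permutation p = 0.408). Perm1 gave an r of −0.17 (permutation p = 0.442). Tfam was the closest, with an r of 0.51 (permutation p = 0.0161, adjusted p = 0.074) and a rho of 0.60 (permutation p = 0.00328, adjusted p = 0.0328), 0.70 in air and 0.27 in smoke, and 0.45 with the 2 samples most distant from its median left out. Without air sample 11 its r was 0.41 (adjusted permutation p = 0.189). With the first component taken out its r was 0.06. Esrrg had an r of 0.47, Nrf1 0.45 and Ppara −0.45 (adjusted permutation p = 0.074 for each). Over the same 24 samples Ppara had an r of 0.53 with the share of counts taken by Gm42418, which held 9.62 to 17.8% of each library; that relation was not computed with the share taken out.

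Genes whose levels most resembled a member's were ranked by Pearson's r over the same 24 group-centred samples, among genes of at least 10 CPM, and are given as a description with no test. For Ppargc1a they were Wfs1, Vgll2 and Retreg1 (r 0.75, 0.73 and 0.70), and for Perm1 Rtn4ip1, Fastk and Mdn1 (r 0.71, 0.67 and 0.65). For Esrrb they were Mrpl16, Psmd3 and Macf1 (r 0.73, 0.72 and 0.68). For Tfam they were Adssl1, Atp5l and Atp5a1 (r 0.85, 0.84 and 0.84), the last pair being ATP synthase subunits, and for Esrrg Timm17a, Sec62 and Sdhc (r 0.86, 0.85 and 0.85), Sdhc being a subunit of succinate dehydrogenase. For Esrra they were Pfdn2, Ppp1r12b and E2f4 (r 0.82, 0.82 and 0.81). For the remaining members Ppargc1b, Nrf1, Ppara and Ppard the best r lay between 0.68 and 0.76, with Arid1b, Mcfd2, Trib1 and Map2. All values share library scaling, and those of Esrra, Esrrg and Tfam share the first component.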

How the data were processed

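The authors deposited raw read counts per Ensembl gene, 1 column per sample, from QuantSeq 3′ forward libraries of plantaris muscle sequenced on an Illumina HiSeq instrument, per the labels' protocols. STAR, DESeq2 and the build mm9 are named in the submitters' processing notes; the counting tool, annotation and strand setting are not given in the sources used here. Reads may include PCR copies, so counting errors given cover counting only. Groups and replicate numbers came from the titles. Whether samples are separate animals is not spelled out, and the p-values set the group difference against the spread between these samples. If some samples shared an animal, the p-values would be too small.

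Symbols came from GENCODE M21 (GRCm38), which held 47224 of 47643 IDs, and coordinates are in that build. In edgeR 4.0.16 (R 4.3.3) genes were kept by filterByExpr (minimum count 10), scaled by TMM and tested by the quasi-likelihood F-test on 24 samples without covariates. Adjusted p-values are Benjamini-Hochberg over 10159 genes, called under 0.05. Log2 CPM used a prior count of 2. Correlations used 100000 permutations within groups (Python 3.11.15, numpy 2.4.6). The procedure was tested on simulated data with genes changed 1.3-fold, 1.5-fold or 2-fold, and it called 35.8%, 84.6% and 96.8% of them. That run had 8 false calls, and a run without changes gave 0 calls. A change of about 1.3-fold was thus missed more often than found. No samples were merged as duplicates, since the 133 same-group pairs compared had a chi-square per gene of 2.33 or more.

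Named genes were all members and, from each list fixed for the pathway, up to 8 called genes of smallest p, or the 2 of smallest p where none was called. The result for 1 gene that the rule names is not reported here. Members and lists were chosen with earlier results of these data known. Alternatives used DESeq2 1.42.0, limma 3.58.1 and sva 3.50.0, other scalings, filters, covariates, thinning, a replicate block and leaving out each sample. The clock index was the mean log2 CPM of Dbp, Per3, Nr1d2 and Tef minus that of Nfil3, Arntl and Clock, chosen with earlier results of these data known. Npas2 was also chosen for the subtracted mean but did not pass the expression filter, so it did not enter. Dbp, Per3, Nr1d2 and Nfil3 were called between the groups, so the index itself differs by group. Tef, Arntl and Clock were not called.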

Additional observations from a re-analysis of the deposited data

How the results depend on the processing

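With 0 members called as reported, RLE or upper-quartile scaling, limma voom, other filters, thinning, a surrogate variable and the covariates also called 0, while DESeq2 called 1 (Esrrb). Of all genes, 195 were called as reported, 318 by DESeq2, 56 with a blood score, 32 with the clock index and 80 with a nerve score, the last added after the data were seen. The pathway lists together had 18 genes called, 9 with the blood score and 7 with the clock index. PGC-1 and ERR targets called lower numbered 5, 8 by DESeq2, 3 with the blood score and 1 with the clock index, and PPAR targets numbered 9, and 4 with the blood score. These covariates correlate with the group (r −0.56 for blood, 0.76 for the clock index, 0.56 for nerve); the cause of the lower counts was not tested. Scaling moved the median of all genes by under 0.01.

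The labels do not say whether replicate numbers pair the mice. Deviations correlated at a mean r of −0.0059 over 11 same-numbered pairs, and 2 air samples correlated best with their own number. These values give no sign of a pairing but cannot exclude it. With the replicate block over the same-numbered pairs 1 member was called (Esrrb, edgeR adjusted p = 0.0347) and 138 genes in all. The pathway lists together had 13 genes called in place of 18. Among those that did not pass were Nr4a3, Mdh1, Decr1 and Cpt2 (edgeR adjusted p = 0.0553, 0.0697, 0.0831 and 0.0638). Their log2 fold changes there were −1.55, −0.25, −0.26 and −0.28.

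Leaving out each of 24 samples gave 0 to 1 members, 141 to 254 genes, 15 to 20 pathway genes, 4 to 8 PGC-1 and ERR targets, 7 to 10 PPAR targets, 0 to 2 member pairs and 0 to 0 relations to the OXPHOS score. By Spearman's rho 0 pairs and 1 relation passed, and with the first component taken out, added after the data were seen, 0 pairs. The direction turned, always for a value that did not pass, with the clock index for Ppargc1a (0.064), Esrra (0.021) and Perm1 (0.084), with the blood score for Tfam (−0.030), and with 1 sample left out for Tfam (−0.025 to 0.087), Nrf1 (−0.0068 to 0.11) and Ppargc1b (−0.0045 to 0.13). The test planned for members under the expression filter was not run, because all passed. At 11 to 36 counts per sample, counting error alone gives Ppard a coefficient of variation of 21.2%, against 27.3% and 27.4% observed.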
